A study of Rattus norvegicus and synthetic construct with 4 samples.

Results

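Small nucleolar RNA hosts, long noncoding RNAs, microRNA hosts and RNA polymerase III genes were represented by 30 of the 3378 elements of a STARR-seq library made from human pancreatic islet sequences. In STARR-seq, a plasmid carries a candidate regulatory sequence within the reporter transcript itself, and the RNA made per plasmid DNA measures the output of that sequence. The elements were 198 bp long and had been chosen by CAGE, which maps the 5' ends of capped transcripts, and each plasmid carried a random barcode of 16 bases. The RNA group comprised 3 libraries, each taken 24 h after electroporation of 10 ug of the plasmid library into INS1 832/13 cells, a rat insulinoma line that secretes insulin and stands in for pancreatic beta cells. It was set against 1 library of the input plasmid DNA, which all 3 RNA libraries share. An element was a member when its midpoint lay within 2000 bp of the listed start of 1 of 29 genes (hg19, as are all coordinates here). The listed starts are known to the nearest kilobase, and the files give neither genes, exons nor strand, so whether an element holds a promoter or part of a transcribed region was not annotated here. Members were found at 19 of the 29 genes, and the starts of SNHG12, MIR375, DANCR, SNHG15, SNHG6, SNHG7, H19, MIR17HG, MIR22HG and TUG1 had no element in the count table.

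Small nucleolar RNAs guide the chemical modification of ribosomal and spliceosomal RNA, and in vertebrates most are cut from the introns of host genes. The spliced exons of many hosts, the SNHG genes, GAS5 and ZFAS1 among them, encode no protein, and many hosts start transcription at a pyrimidine tract, as ribosomal protein genes do. RN7SK, RMRP and RPPH1 are instead transcribed by RNA polymerase III from compact promoters upstream of the gene. The beta cell line is of rat origin, so human sequences were read by rat transcription factors.

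The 30 members carried 352 barcodes, with a median of 8 and a range of 2 to 85 per element, against a median of 6 and a range of 2 to 133 over all elements. The RNA libraries held 211117, 197554 and 218571 counts in all, and the plasmid DNA library held 1079728. Members took 0.991% of the RNA counts and 0.947% of the DNA counts. Listed barcodes had 10 or more DNA counts and 1 or more RNA counts, and plasmids that gave no RNA were therefore left out of every ratio. RNA/DNA is given relative to the centre of the library set by TMM normalization, so a ratio of 1 marks the centre and not a control sequence. With library totals in its place, the median log2 RNA/DNA of all elements moved by -0.73. SDs cover the 3 RNA libraries alone, because the 1 DNA library has no replicate. The p-values and SEs of edgeR rest on a variance estimated in part from all elements. They are therefore no measure of the spread between an element's own 3 RNA libraries alone. All RNA libraries came from electroporations of 1 plasmid library. The PCR counts have no stated molecular identifier.

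Elements at the small nucleolar RNA hosts SNHG16, SNHG3 and SNHG8 had the 3 highest ratios among the members that passed the test. Of the 10 elements at RNA polymerase III genes, 7 lay below the centre in all 3 RNA libraries, against 29.4% of all elements. These 10 were mostly overlapping stretches of 3 genes, and none of them passed the test. Above the centre, 5 of the 30 members passed the quasi-likelihood test of edgeR, with a threshold of 0.05 on p after Benjamini-Hochberg adjustment over all elements. That is 16.7% of members, where 8.88% of all 3378 elements passed. The 5 were elements at SNHG16, SNHG3, SNHG8, TBRG4 and NORAD, and each was above the centre in 3 of 3 RNA libraries. Below the centre no member passed edgeR's test, and the share of all elements that passed was 0%. At an unadjusted p under 0.05, 6 members were above and 1 was below, against 13.5% and 0.77% of all elements. DESeq2 called 6 members above and 0 below, with 16 of the 30 left without an adjusted p, against 23.2% and 0% of the elements it tested. In limma-voom 7 members were above and 1 below, against 15.1% and 4.03% of all elements. With library totals, 2 members were called above and 1 below, against 5% and 1.48% of all elements. Leaving out RNA replicate 1, 2 or 3 gave 3, 2 and 3 members above, against 8.56, 5.71 and 6.45% of all elements. With RNA counts of 1 to 4 taken as 0, 2 members were above and 0 below, against 3.4% and 0.207%. Without the strongest barcode of each element 5 members were above (all elements 8.44%), with barcodes of at least 20 DNA counts 4 (6.75%), with elements of at least 5 barcodes 5 (12.1%) and with the DESeq2 size factors 5 (9.24%).

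The call rate of the whole table depends on barcode number. Of members with at least 10 barcodes, 4 of 12 were called above, against 183 of 1143 elements (16.0%) of that size in the table. The median log2 RNA/DNA was -0.49 over the 30 members, with a range of -2.09 to 3.98, against -0.03 over all elements. In the single libraries, with a pseudocount of 0.5, the median of the members was -0.58 ± 0.18 (SD, n = 3), against -0.10 ± 0.02 over all elements. Above the centre in all 3 RNA libraries were 7 members (23.3%, against 25.8% of all elements), and below it in all 3 were 14 (46.7%, against 29.4%).

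The SNHG16 element spanned chr17:74553774-74553971 and ranked 11 of 3378. SNHG16 is a noncoding host of box C/D small nucleolar RNAs. Its 7 barcodes gave 326, 435 and 401 RNA counts over 212 DNA counts. RNA/DNA was 13.2, 18.4 and 15.8 times the centre, and the 3 libraries lay close together compared with their distance from the centre. The log2 ratio was 3.98 ± 0.40 (SE), and edgeR's test gave an adjusted p of 2.25e-13.

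The 7 SNHG16 barcodes are shown because they separate the output of single plasmids that carry the same human sequence. They are printed 5' to 3' as deposited, in lower case, since no base of a random barcode is singled out. The 3 RNA counts stand in the order of replicates 1, 2 and 3.
SNHG16 plasmid with 109, 127 and 91 RNA counts over 29 DNA counts: atggacgctctgttta
SNHG16 plasmid with 43, 94 and 146 RNA counts over 23 DNA counts: taactcttatttgcta
SNHG16 plasmid with 100, 87 and 68 RNA counts over 29 DNA counts: actagtatttgtgaat
SNHG16 plasmid with 41, 64 and 42 RNA counts over 52 DNA counts: aaaattgacgcttata
SNHG16 plasmid with 15, 22 and 44 RNA counts over 40 DNA counts: tctacaaggacggccg
SNHG16 plasmid with 15, 41 and 9 RNA counts over 25 DNA counts: tgcatctcgcagcgca
SNHG16 plasmid with 3, 0 and 1 RNA counts over 14 DNA counts: gataagaaaagtactc

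In 6 of these 7 plasmids every RNA library gave at least 5 counts, a level that matters because RNA counts per barcode in this table fall into a low range up to 4 and a high range from 5. The ratios of the single plasmids ran from 0.820 to 35.3 times the centre, with a median of 8.11. The strongest plasmid held 28.1% of the RNA counts, and without this plasmid alone the log2 ratio, pooled over the RNA libraries, was 3.71 in place of 3.98.

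At SNHG3, a noncoding host of H/ACA small nucleolar RNAs, a pair of elements offset by 70 bp and sharing 128 bp was measured. The lower-coordinate element, chr1:28832407-28832604, gave 214, 272 and 319 RNA counts over 406 DNA counts, from 16 barcodes. Its RNA/DNA was 4.52, 6.003 and 6.54 times the centre, with a log2 ratio of 2.51 ± 0.41 (SE) and an adjusted p of 1.79e-06 in edgeR's test. The higher-coordinate element, chr1:28832477-28832674, gave 2, 17 and 28 RNA counts over 206 DNA counts, from 10 barcodes. Its RNA/DNA was 0.0832, 0.739 and 1.13 times the centre. Its log2 ratio of -0.62 ± 1.49 (SE) had an adjusted p of 0.971.

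The counts of single plasmids are the parts of these sums, so they describe the contrast and do not test it again. All 16 barcodes of the lower-coordinate SNHG3 element had at least 5 counts in at least 1 RNA library, against 2 of 10 barcodes of its neighbour. The weakest plasmid of the lower-coordinate element stood at 1.24 times the centre, and the median plasmid at 4.96 times, against a median of 0.230 times for the neighbour. In the neighbour, 9 of 10 barcodes were seen in only 1 RNA library, and none in all 3. The 3 barcodes with the most RNA counts of each element are printed as examples.
SNHG3 lower-coordinate plasmid with 48, 31 and 62 RNA counts over 38 DNA counts: gcccaaagcatgggtt
SNHG3 lower-coordinate plasmid with 38, 38 and 43 RNA counts over 18 DNA counts: attaggaatattctcg
SNHG3 lower-coordinate plasmid with 0, 50 and 34 RNA counts over 72 DNA counts: ttggtttcgttactgt
SNHG3 higher-coordinate plasmid with 1, 0 and 17 RNA counts over 18 DNA counts: ataatttggacgaccc
SNHG3 higher-coordinate plasmid with 0, 16 and 0 RNA counts over 20 DNA counts: gattttacttagtaga
SNHG3 higher-coordinate plasmid with 0, 0 and 3 RNA counts over 10 DNA counts: gaagggcgtcctttaa

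The difference itself was tested with edgeR over all 772 pairs of elements with midpoints within 4000 bp, as an interaction of element and RNA. The SNHG3 pair differed by 3.12 ± 1.21 (log2, lower minus higher coordinate, SE), with an unadjusted p of 0.0209 and an adjusted p of 0.582. No pair of the table passed at an adjusted p under 0.05 (0%), and 39 (5.05%) had an unadjusted p under 0.05. Of the 19 pairs between members of 1 gene, the pairs at SNHG3 and NORAD did. The errors of the differences were wide, and a missed threshold does not show that the elements of a pair act alike. Nor does an unadjusted p under 0.05 in edgeR's test show a difference, since 5.05% of all pairs had one.

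SNHG8, a noncoding host of an H/ACA small nucleolar RNA, had 1 element at chr4:119199829-119200026. It gave 141, 130 and 229 RNA counts over 429 DNA counts, from 12 barcodes. RNA/DNA was 2.82, 2.72 and 4.45 times the centre, with a log2 ratio of 1.73 ± 0.48 (SE) and an adjusted p of 0.00792 in edgeR's test. The median plasmid stood at 3.59 times the centre and 10 of 12 had at least 5 counts in some RNA library. The call was lost without RNA replicate 2 (adjusted p 0.0879) and without RNA replicate 3 (0.146), at log2 ratios of 1.86 and 1.47. It was also lost with library totals (log2 0.99, adjusted p 0.253) and with RNA counts of 1 to 4 taken as 0 (log2 1.22, adjusted p 0.463).

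TBRG4 encodes a mitochondrial RNA-binding protein of the FASTK family and carries H/ACA small nucleolar RNAs in its introns, which makes it the protein-coding host of the set. Its element, chr7:45151205-45151402, gave 217, 110 and 231 RNA counts over 632 DNA counts, from 24 barcodes. RNA/DNA was 2.94, 1.56 and 3.04 times the centre, and the log2 ratio was 1.33 ± 0.44 (SE), at an adjusted p of 0.0402 by edgeR. The call was lost without any of the 3 RNA replicates, with adjusted p of 0.127, 0.0567 and 0.316 without replicates 1, 2 and 3. The plasmids were divided, with 12 of 24 reaching 5 counts in some RNA library and ratios from 0.0844 to 9.48 times the centre. The median plasmid, over the RNA libraries together, stood at 1.17 times the centre. The median taken within each RNA library, with a pseudocount of 0.5, gave a mean log2 ratio of -0.42. No value of all elements on this measure is given here, so -0.42 does not place TBRG4 among them. With library totals the log2 ratio was 0.59 (adjusted p 0.486), and with low RNA counts taken as 0 it was 0.76 (0.966).

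EPB41L4A-AS1, a noncoding host of a small nucleolar RNA, had 2 barcodes at chr5:111496475-111496672. The element gave 54, 66 and 25 RNA counts over 99 DNA counts and RNA/DNA of 4.67, 5.97 and 2.10 times the centre, above it in every library. It did not pass edgeR's test, at a log2 ratio of 2.08 ± 1.07 (SE) and an adjusted p of 0.373, while limma-voom called it above (adjusted p 0.0258). A single plasmid held 84.1% of its RNA counts.

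The hosts GAS5, ZFAS1, SNHG1 and SNHG5 had elements with log2 ratios below the centre that did not pass the test. GAS5 is a growth-arrest transcript whose introns hold box C/D small nucleolar RNAs, and its element, chr1:173837014-173837211, had the lowest ratio of all members. It gave 6, 1 and 5 RNA counts over 146 DNA counts, or 0.352, 0.0614 and 0.285 times the centre (log2 -2.09 ± 1.75 SE, adjusted p 0.773 in edgeR's test). The 6 plasmids behind it are shown as an example in which none reached 5 counts in any RNA library. The same held at ZFAS1, SNHG1, MIR7-3HG and the counted elements of lowest coordinate at RMRP and RPPH1.
GAS5 plasmid with 1, 0 and 3 RNA counts over 38 DNA counts: ctggaagatcttttca
GAS5 plasmid with 4, 0 and 0 RNA counts over 13 DNA counts: gatacttgcaaatacg
GAS5 plasmid with 0, 0 and 1 RNA counts over 18 DNA counts: aatccctaccgcactt
GAS5 plasmid with 1, 0 and 0 RNA counts over 31 DNA counts: gttgctggtgcctgcg
GAS5 plasmid with 0, 0 and 1 RNA counts over 15 DNA counts: tagattacaatcagga
GAS5 plasmid with 0, 1 and 0 RNA counts over 31 DNA counts: tttagtgcccatgtca

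ZFAS1, at chr20:47895074-47895271, gave 9, 7 and 10 RNA counts over 139 DNA counts, and its ratios of 0.555, 0.451 and 0.599 were close together. SNHG1, at chr11:62623496-62623693, had 3 barcodes and 4, 3 and 0 RNA counts over 61 DNA counts. SNHG5, at chr6:86388333-86388530, gave 0, 3 and 40 RNA counts over 152 DNA counts. Replicate 3 alone put SNHG5 above the centre, at 2.19 times, while its 0 in replicate 1 allows a ratio of up to 0.169 (3 counts, counting error only). The adjusted p of these 3 elements ran from 0.872 to 0.999 in edgeR's test.

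Over the 10 elements of small nucleolar RNA hosts, 5 were above the centre and 5 below, against 48.8% of all elements above. Of the 10, edgeR called 4 above (40.0%, against 8.88% of all elements), and with library totals the calls at SNHG16 and SNHG3 were kept. The numbers of elements above and below were the same with library totals and with the DESeq2 size factors. In the 3 RNA libraries 32.6, 33.7 and 42.4% of their 92 barcodes had at least 5 counts. Over all barcodes of the table the shares were 22.7, 22.1 and 23.4%. The 92 barcodes include those of the 4 called elements, so these shares are not separate evidence about hosts. At GAS5, ZFAS1 and SNHG1 no barcode reached 5 counts in any RNA library, while some did at each other host element.

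The share of paired barcodes that was counted varied between host elements. It was 77.8% at SNHG16, 75.0% at SNHG8, 72.7% at the lower-coordinate SNHG3 element and 61.5% at TBRG4. It was 32.3% at the higher-coordinate SNHG3 element, 16.7% at SNHG1, 17.1% at GAS5 and 19.4% at SNHG5, while 6 of 12 paired barcodes were counted at ZFAS1, and over all counted elements 42.2% of the paired barcodes were in the table. A barcode needed an RNA count to be listed, so this share is not independent of the ratio. For GAS5, 6 of 35 paired barcodes were listed.

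The RNA polymerase III genes were covered by 10 elements, mostly tiles offset by 100 bp. In the test over all elements edgeR called none of them, while it called 8.88% of all elements above and 0% below. RN7SK encodes the 7SK RNA that holds the elongation factor P-TEFb in an inactive complex, RMRP the RNA of RNase MRP, and RPPH1 the RNA of RNase P. Of the 10 elements, 8 were below the centre, with a median log2 ratio of -1.18 and a range of -2.00 to 0.30. Below the centre were 51.2% of all elements. With library totals all 10 were below, as were 71.0% of all elements. Of their 105 barcodes, 8.57, 4.76 and 7.62% had at least 5 counts in the 3 RNA libraries.

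RN7SK had 5 elements with 71 barcodes. The element with the most, chr6:52860601-52860798, had 32 and gave 71, 20 and 29 RNA counts over 1044 DNA counts. RNA/DNA was 0.583, 0.172 and 0.231 times the centre, and 3 of the 32 plasmids reached 5 counts in some RNA library. Its log2 ratio of -1.60 ± 0.67 (SE) had an unadjusted p of 0.0189 and an adjusted p of 0.165 in edgeR's test, and 0.77% of all elements were below the centre at an unadjusted p under 0.05. Without RNA replicate 1, its highest library, the log2 ratio was -2.34 and the adjusted p 0.0191, a setting in which 0.0888% of all elements were called below. It was also called below with library totals (adjusted p 0.00436) and in limma-voom (0.00991), where 1.48% and 4.03% of all elements were. By edgeR it was not called without RNA replicate 2 (log2 -1.30, adjusted p 0.510) or replicate 3 (log2 -1.40, adjusted p 0.457). Nor was it called without the strongest barcodes (0.524), with barcodes of at least 20 DNA counts (0.432) or in DESeq2 (0.191).

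The other RN7SK tiles were low or near the centre. The element at chr6:52860006-52860203 gave 10, 23 and 24 RNA counts over 376 DNA counts, or 0.228, 0.548 and 0.532 times the centre. That at chr6:52860501-52860698 gave 51, 10 and 7 RNA counts over 439 DNA counts, with replicate 1 at 0.995 times the centre and the other libraries at 0.204 and 0.133. The tile at chr6:52860401-52860598 had a mean of 0.663 ± 0.283 times (SD, n = 3). The last tile, chr6:52860701-52860898, was at 1.23 ± 0.426 times and shares 98 bp with the element of 32 barcodes. The difference of this last pair was -1.90 ± 1.27 (log2, lower minus higher coordinate, SE), with an unadjusted p of 0.156 and an adjusted p of 0.998 in edgeR's test of pairs.

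RMRP had 3 tiles, of which no pair differed in edgeR's test of pairs (lowest unadjusted p 0.175). The tile at chr9:35657742-35657939 was at 0.0824, 0.258 and 0.400 times the centre in the 3 RNA libraries, over 3 barcodes. The tile 100 bp further on, chr9:35657842-35658039, was at 0.233, 0.853 and 1.25 times, over 6 barcodes. The last, chr9:35657942-35658139, gave 64, 40 and 38 RNA counts over 331 DNA counts from 14 barcodes, or 1.66, 1.08 and 0.956 times the centre (log2 0.30 ± 0.86 SE, adjusted p 0.975 in edgeR's test). At RPPH1, the 2 counted tiles, chr14:20811331-20811528 and chr14:20811431-20811628, were at 0.297 ± 0.269 and 0.354 ± 0.327 times (SD, n = 3), from 2 and 9 barcodes. A further 2 RPPH1 elements were paired with 4 barcodes and 1 barcode but were not in the count table.

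Among the long noncoding RNAs, NORAD was the gene with an element called by edgeR. That is 1 of 9 elements (11.1%), where 8.88% of all elements were called above. NORAD is an abundant cytoplasmic RNA that binds Pumilio proteins. Its lower-coordinate element, chr20:34638855-34639052, gave 212, 143 and 68 RNA counts over 379 DNA counts, from 16 barcodes. RNA/DNA was 4.79, 3.38 and 1.49 times the centre, with a log2 ratio of 1.69 ± 0.54 (SE) and an adjusted p of 0.0294 in edgeR's test. The call was lost without RNA replicate 1 (adjusted p 0.316) and without RNA replicate 2 (0.414). The strongest of the 16 barcodes held 28.8% of the RNA counts, and without it alone the log2 ratio, pooled over the RNA libraries, was 1.24 in place of 1.68. In a fit that leaves out the strongest barcode of every element and sets the centre anew, the log2 ratio was 1.65 and the call was lost (adjusted p 0.0822). It was lost with library totals as well (log2 0.95, adjusted p 0.331), with low RNA counts taken as 0 and with barcodes of at least 20 DNA counts.

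The neighbour of this NORAD element, chr20:34638955-34639152, shares 98 bp with it and gave 27, 27 and 37 RNA counts over 396 DNA counts, from 15 barcodes. RNA/DNA was 0.584, 0.611 and 0.778 times the centre. At least 5 counts in some RNA library were found for 11 of 16 barcodes of the lower-coordinate element, against 4 of 15 of the higher-coordinate element. The difference was 2.29 ± 1.05 (log2, lower minus higher coordinate, SE), with an unadjusted p of 0.0457 and an adjusted p of 0.953 in edgeR's test of pairs. At SNHG3, NORAD and in the MALAT1 pairs, the element of lower coordinate was the higher one. The RMRP and RPPH1 pairs went the other way, and the RN7SK pairs went both ways. None of these pairs was called, and some signs changed with the setting. The RPPH1 difference was -0.24 with all libraries and 1.31 without RNA replicate 3. That of the RMRP tiles starting at 35657842 and 35657942 was -0.66 with all libraries and 0.04 without RNA replicate 1. Strand is not given, so this order says nothing about the direction of transcription.

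NEAT1, the scaffold RNA of nuclear paraspeckles, had the most barcodes of the members, 85, at chr11:65188678-65188875. Its element gave 549, 408 and 500 RNA counts over 2542 DNA counts, and RNA/DNA of 1.85, 1.44 and 1.64 times the centre was above it in every library. The log2 ratio was 0.72 ± 0.27 (SE), with an unadjusted p of 0.0105 and an adjusted p of 0.104 in edgeR's test. With library totals the log2 ratio was -0.02, and the element was 0.74 above the median of all elements, against 0.75 with TMM. Of the 85 plasmids, 51 reached 5 counts in some RNA library and 2 did so in all 3. DESeq2 (adjusted p 0.0138) and limma-voom (3.63e-06) called it above the centre, as did edgeR without the strongest barcodes (0.00629). By edgeR it was not called without RNA replicate 1, 2 or 3 (adjusted p 0.263, 0.159 and 0.273). Nor was it called with barcodes of at least 20 DNA counts (0.206). With RNA counts of 1 to 4 taken as 0 its log2 ratio was 0.02, also without a call. A second NEAT1 element was paired with 6 barcodes and not counted.

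MALAT1, an abundant RNA of nuclear speckles, was covered by 3 tiles offset by 100 bp, whose ratios varied between libraries. The first tile, chr11:65265172-65265369, had 2 barcodes and 0, 29 and 40 RNA counts over 38 DNA counts. Replicates 2 and 3 were at 6.84 and 8.77 times the centre, while the 0 in replicate 1 allows up to 0.676 times, so the libraries disagree. The second tile, chr11:65265272-65265469, gave 61, 16 and 20 RNA counts over 364 DNA counts from 12 barcodes, or 1.44, 0.394 and 0.458 times. The third tile, chr11:65265372-65265569, gave 2, 14 and 10 RNA counts over 264 DNA counts from 9 barcodes, or 0.0649, 0.475 and 0.315 times. None of the 3 pairs differed in edgeR's test of pairs, with unadjusted p from 0.117 to 0.430.

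MEG3, an imprinted RNA expressed from the maternal allele, and OIP5-AS1 rested on 1 RNA library each. The MEG3 element, chr14:101292394-101292591, gave 0, 35 and 3 RNA counts over 80 DNA counts, and 1 of its 3 plasmids held 92.1% of them. The OIP5-AS1 element, chr15:41576105-41576302, gave 3, 35 and 3 RNA counts over 117 DNA counts, with replicate 2 at 2.68 times the centre and the other libraries at 0.220 and 0.214. CYTOR, at chr2:87754922-87755119, gave 5, 24 and 1 RNA counts over 229 DNA counts, again with the most in replicate 2, and 1 of 4 plasmids held 86.7% of them. None of these 3 elements passed edgeR's test, with adjusted p from 0.890 to 1.00.

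Of the 4 microRNA genes and hosts, MIR7-3HG had an element in the table. It is the host of a copy of miR-7, a microRNA abundant in endocrine cells of the pancreas. The element, chr19:4769093-4769290, gave 2, 3 and 1 RNA counts over 51 DNA counts from 3 barcodes. It was below the centre in all 3 RNA libraries, at 0.336, 0.527 and 0.163 times, and did not pass edgeR's test (adjusted p 0.872). A count of 3 would stand at 0.504, 0.527 and 0.490 times in replicates 1, 2 and 3, so these ratios rest on very few counts.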

How the data were processed

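The authors deposited raw counts per barcode for 1 plasmid DNA library and 3 RNA libraries, plus a pairing of barcodes and elements. How reads were processed, how the count table was filtered and whether molecular identifiers were used is not given in the sources read. Coordinates are hg19 (per the submitters' processing notes), and starts are printed counted from 1. Counts were summed over the barcodes of an element and tested over all 3378 elements with edgeR 4.0.16 (R 4.3.3), RNA against DNA, by the quasi-likelihood test after TMM scaling. P-values were adjusted by Benjamini-Hochberg, and 0.05 was the threshold. The SE is the absolute log2 ratio over the square root of F. Pairs of elements within 4000 bp were tested with the same library factors. Both tests were also run on simulated counts of whole elements. Single barcodes and the filter on RNA counts were not simulated, and the outcome is not given here. Alternatives used DESeq2 1.42.0, limma 3.58.1, other scalings, filters and sets of libraries. Tables were made with pandas 2.3.3 in Python 3.11.15.

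The members, gene lists and tests were chosen with earlier results of these data known, so no list is independent evidence. All members are named, with values in every library for those called or with at least 10 barcodes. Element sequences and a human annotation were not used here, and genes of small nucleolar ribonucleoproteins were therefore not analysed here.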

Additional observations from a re-analysis of the deposited data

How the results depend on the processing

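The count of 5 members called above the centre was 2 with library totals and with barcode counts of 1 to 4 in RNA taken as 0, where SNHG8, TBRG4 and NORAD were lost, 6 in DESeq2 and 7 in limma-voom. Leaving out 1 RNA replicate gave 2 to 3 members above and 0 to 1 below, and a median log2 ratio of the members of -0.79 to -0.27. It gave 193 to 289 of all elements above. The SNHG16 and SNHG3 calls were kept in all 11 alternatives that repeat the element test. Below the centre, 1 member, the RN7SK element with 32 barcodes, was called with library totals, without RNA replicate 1 and in limma-voom, where 50, 3 and 136 of all elements were. All elements called above numbered 169 with library totals, 115 with low counts set to 0 and 511 in limma-voom. The median log2 ratio of the members was -1.23 with library totals, -1.46 with low counts set to 0 and -0.76 without the strongest barcode of each element. The median over barcodes within each RNA library put TBRG4 at a log2 ratio of -0.42, a measure for which no value of all elements is given here. The causes of these changes were not tested. No pair of members was called in any alternative, the lowest adjusted p being 0.0823 at SNHG3 without the strongest barcodes. RNA and DNA libraries could not be paired because 1 DNA library, whose label has no replicate number, served all 3 RNA libraries. The test of pairs of elements had no term for the library, although both elements of a pair were counted in the same libraries. SEs of the members ran from 0.27 to 1.87 on the log2 scale, which limits what a low ratio can show.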
